A study of Mus musculus with 24 samples.

Results

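Nnt and 7 partner genes of mitochondrial peroxide defence were followed through hindlimb muscles of mice, as 8 of the 24016 gene symbols in a poly(A) RNA sequencing table. They were found by symbol: Nnt, Idh2, Prdx3, Txn2, Txnrd2, Gsr, Sod2 and Cat, with the most abundant transcript kept for each. Nnt was chosen by its measured RPKM difference between diabetic and control muscle in these same libraries, so its diabetes differences are given as a description with no p-value. The 7 partners were put beside it for their function.

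The muscles were taken from mice 7 days after 1 femoral artery had been tied off, an operation that diverts blood through collateral arteries of the thigh and leaves the calf short of oxygen. There were 6 libraries in each of 4 groups: ischemic gastrocnemius of type 2 diabetic mice, ischemic gastrocnemius of control mice, adductor of type 2 diabetic mice and adductor of control mice. The adductor is described in the labels as normoxic. The strain background of both mouse groups is given as C57BL/6 without a substrain, every animal had been operated, and how diabetes was produced, the animals' age and sex, and whether the muscles of 1 number came from 1 animal are not given in the sources used here. Because the gastrocnemius was ischemic and the adductor was not, muscle and ischemia cannot be told apart. Where nothing says that samples came from separate animals, p-values measure only the spread between these samples.

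Nicotinamide nucleotide transhydrogenase, the product of Nnt, sits in the inner mitochondrial membrane and uses the proton gradient to make NADPH from NADH. Idh2, the mitochondrial NADP-dependent isocitrate dehydrogenase, is another source of NADPH in the matrix. That NADPH keeps a pair of peroxide-removing chains running. In one, thioredoxin reductase 2 (Txnrd2) recharges mitochondrial thioredoxin (Txn2), which recharges peroxiredoxin 3 (Prdx3). In the other, glutathione reductase (Gsr), found in cytosol and mitochondria, returns oxidised glutathione to its reduced form. The peroxide comes in large part from Sod2, the manganese superoxide dismutase of the matrix, and Cat, the catalase of peroxisomes, removes peroxide without NADPH. As background, the substrain C57BL/6J is known to carry a deletion within Nnt that other C57BL/6 substrains lack. The mm9 assembly used here was made from C57BL/6J, so reads from the missing exons had no place to align in any library. The deposited values sum all exons of a transcript and do not show which exons were covered.

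Library totals ran from 7.13 to 15.6 M reads. Levels are in RPKM, which divides the reads of a transcript by its exon length in kilobases and by the library total in M reads. At the extremes of depth, 3 reads over a transcript of 1 kb correspond to 0.192 RPKM in the deepest library and 0.421 RPKM in the shallowest. Nnt was counted with 141 to 2572 reads per library, and the thinnest partner, Txnrd2, with 65 to 268, so all 8 genes passed the filter on low values along with 12382 genes in all. A technical split that is in no label divided the libraries, and Gapdh, a glycolytic enzyme, tells its sides apart. Gapdh lay between 677 and 1757 RPKM in the first set (14 libraries, control 1 to 3 and diabetic 1 to 4 of each muscle) and between 0.365 and 13.7 RPKM in the second set (10 libraries, control 4 to 6 and diabetic 5 and 6). Each set held both mouse groups, and results are given pooled and within each set. Muscle fibre genes (all 10 of the markers Acta1, Ckm, Des, Mb, Tnnc2, Tnnt3, Mylpf, Actn3, Casq1 and Pygm) were above 0 in all 4 groups, as the labelled tissue requires.

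Nnt (NR_003544, mm9 chr13:120124334-120197945, minus strand, 3525 exonic bases) was higher in diabetic than in control mice in both muscles, by more in the adductor than in the gastrocnemius. In diabetic gastrocnemius the 6 libraries had 12.8, 31.6, 21.8, 22.5, 13.8 and 23.2 RPKM, and in control gastrocnemius 8.08, 8.50, 7.99, 7.22, 4.72 and 8.52 RPKM. In diabetic adductor they had 18.0, 36.5, 47.2, 33.9, 36.7 and 41.7 RPKM, and in control adductor 5.66, 6.42, 5.64, 3.90, 5.09 and 6.71 RPKM. Every diabetic library lay above every control library of the same muscle, in both sets.

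**Figure D1:**
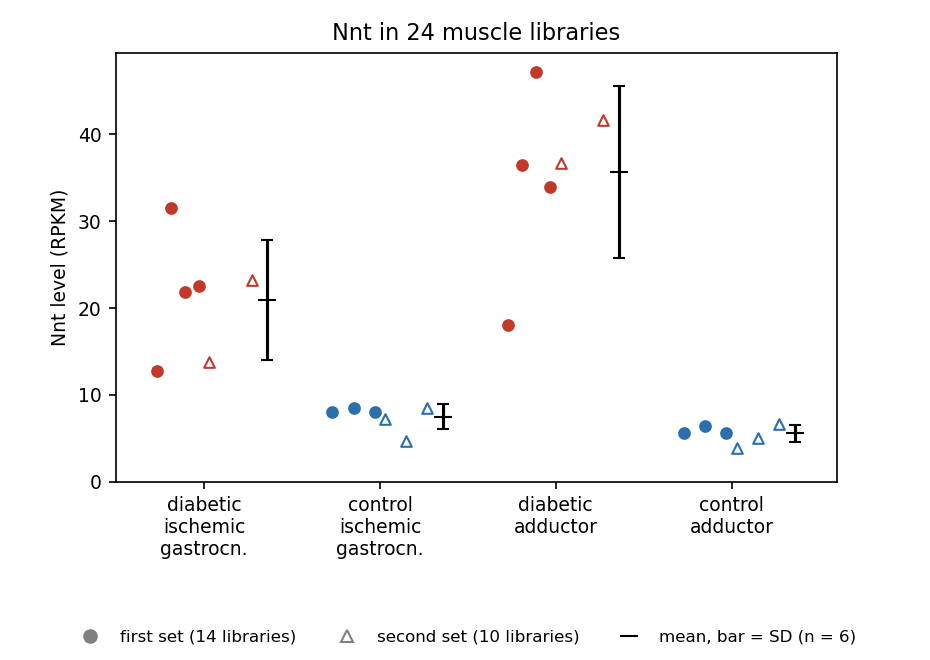
Nnt level in RPKM (linear axis) in each of the 24 libraries by group, with filled circles for the first set, open triangles for the second set, and a line with bar for the mean ± SD (n = 6). The diabetic libraries sit above all control libraries of their muscle: the lowest are 12.8 RPKM in gastrocnemius and 18.0 RPKM in adductor, against control highs of 8.52 and 6.71 RPKM.

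The means were 20.9 ± 6.92 RPKM in diabetic and 7.50 ± 1.45 RPKM in control gastrocnemius, and 35.7 ± 9.87 RPKM in diabetic and 5.57 ± 1.01 RPKM in control adductor (SD, n = 6 each). On the log2(RPKM + 0.5) scale the diabetic minus control difference was 1.38 ± 0.23 (SE; 95% interval 0.91 to 1.85) in gastrocnemius, which is 2.60-fold. It was 2.54 ± 0.23 (2.07 to 3.0) in adductor, which is 5.80-fold. The median over all tested genes was -0.06 in gastrocnemius and 0.04 in adductor. By limma 0.00808% of tested genes were called in the gastrocnemius contrast and 0.0323% in the adductor contrast at an adjusted p under 0.05, with 0% lower in each. Since Nnt was chosen for this pattern, nothing is read from its place among them. Diabetic libraries lay above all control libraries for 0.0323% of genes in gastrocnemius and 0.194% in adductor, and below them for 0.0323% and 0.0242%.

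In gastrocnemius the difference was 1.32 ± 0.31 in the first set and 1.37 ± 0.31 in the second, and in adductor it was 2.35 ± 0.31 in the first set and 2.82 ± 0.31 in the second. Set ratios for Nnt, the second-set mean over the first-set mean, were 0.83 to 1.16 in the 4 groups. The diabetes difference in gastrocnemius minus that in adductor was -1.16 ± 0.32 (95% interval -1.82 to -0.49).

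The 4 groups fell in the order diabetic adductor, diabetic gastrocnemius, control gastrocnemius, control adductor. The neighbours that overlap in this order are the diabetic muscles, where the lowest adductor library had 18.0 RPKM and the highest gastrocnemius library 31.6 RPKM, and the control muscles, where 5 of 6 gastrocnemius libraries lay above every adductor library. Among the 8 genes, levels per length placed Nnt 6th by mean in both diabetic groups, 7th in control gastrocnemius and 8th, below Gsr and Txnrd2, in control adductor. In diabetic adductor its mean of 35.7 RPKM stood beside that of Cat, at 35.7 RPKM.

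The table lists a second Nnt transcript, NM_008710 (chr13:120123124-120197818, 4613 exonic bases). Multiplied back to reads, the 2 transcripts differed by at most 5 reads in any library, so their RPKM differ by the length ratio of 1.31 and the choice between them changes the level and not the comparison. No other gene of the table overlapped Nnt. In the GENCODE M21 transcripts Nnt was found by symbol, with no match to NR_003544. None of the 3434 31-base words of that GENCODE transcript occurred in another gene.

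Genes beside Nnt on chromosome 13 were compared in the same fit. Of 9 genes within 2 Mb in the table, 4 passed the filter on low values. Mrps30, a mitochondrial ribosomal protein, had a diabetic minus control log2 difference of -0.13 ± 0.25 in gastrocnemius and 0.11 ± 0.25 in adductor. Paip1, a partner of the poly(A)-binding protein and the nearest start to that of Nnt, had -0.13 ± 0.17 in gastrocnemius and -0.04 ± 0.17 in adductor. The values were -0.15 ± 0.16 and 0.01 ± 0.16 for 4833420G17Rik, and -0.49 ± 0.40 and -0.75 ± 0.40 for Gm7120. None of the 4 passed in either muscle (limma adjusted p = 1.0 in each).

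**Figure D2:**
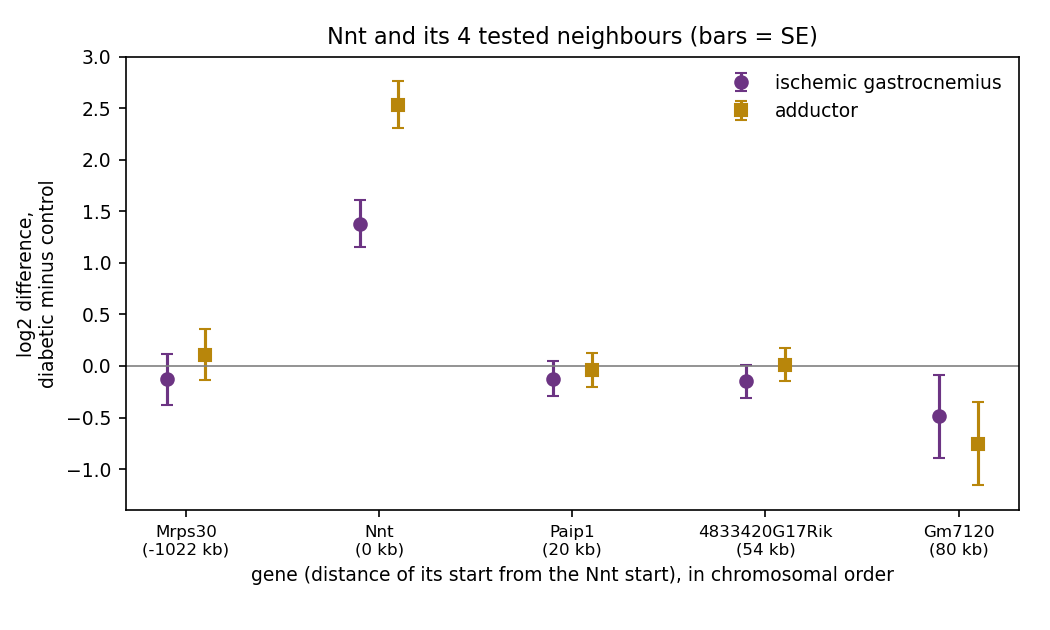
Diabetic minus control log2 difference (linear axis, bars are the SE) of Nnt and its 4 tested neighbours in chromosomal order, with circles for ischemic gastrocnemius and squares for adductor. Nnt stands at 1.38 and 2.54, and the 4 neighbours lie between -0.75 and 0.11.

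The tested genes whose levels ran most like Nnt over the 24 libraries, after centring in each muscle and set, were Srebf1 (Pearson r = 0.86), Abcg1 (0.82), Saraf (0.80), Atp2a2 (0.77) and Gramd1b (0.76). Srebf1 is a transcription factor of lipid synthesis, Abcg1 a sterol exporter and Atp2a2 the calcium pump of slow and cardiac muscle. Centring keeps the difference between mouse groups, which these genes share in direction. What the libraries of a set have in common is in no label. For these reasons r is a description only. Without centring the 5 values were 0.76, 0.42, 0.35, 0.48 and 0.44. Srebf1 averaged 26.9 RPKM in diabetic and 14.4 RPKM in control gastrocnemius, and 40.9 RPKM in diabetic and 17 RPKM in control adductor.

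None of the 7 partners passed the test between diabetic and control mice, in either muscle or in the difference between muscles (limma adjusted p = 1.0 for each of the 7 in each contrast). At an unadjusted p under 0.05 there were 1 of 7 in gastrocnemius (Gsr), 2 of 7 in adductor (Cat and Idh2) and 1 of 7 in the difference between muscles (Gsr), against 1.26%, 2.74% and 1.24% of all tested genes. limma's voom on the recovered reads also called 0 of 7. In the difference between muscles 0% of all genes were called, by limma and by voom, with 154 at an unadjusted p under 0.05. The median of the partners was -0.04 in gastrocnemius and 0.16 in adductor on the log2 scale.

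**Figure D3:**
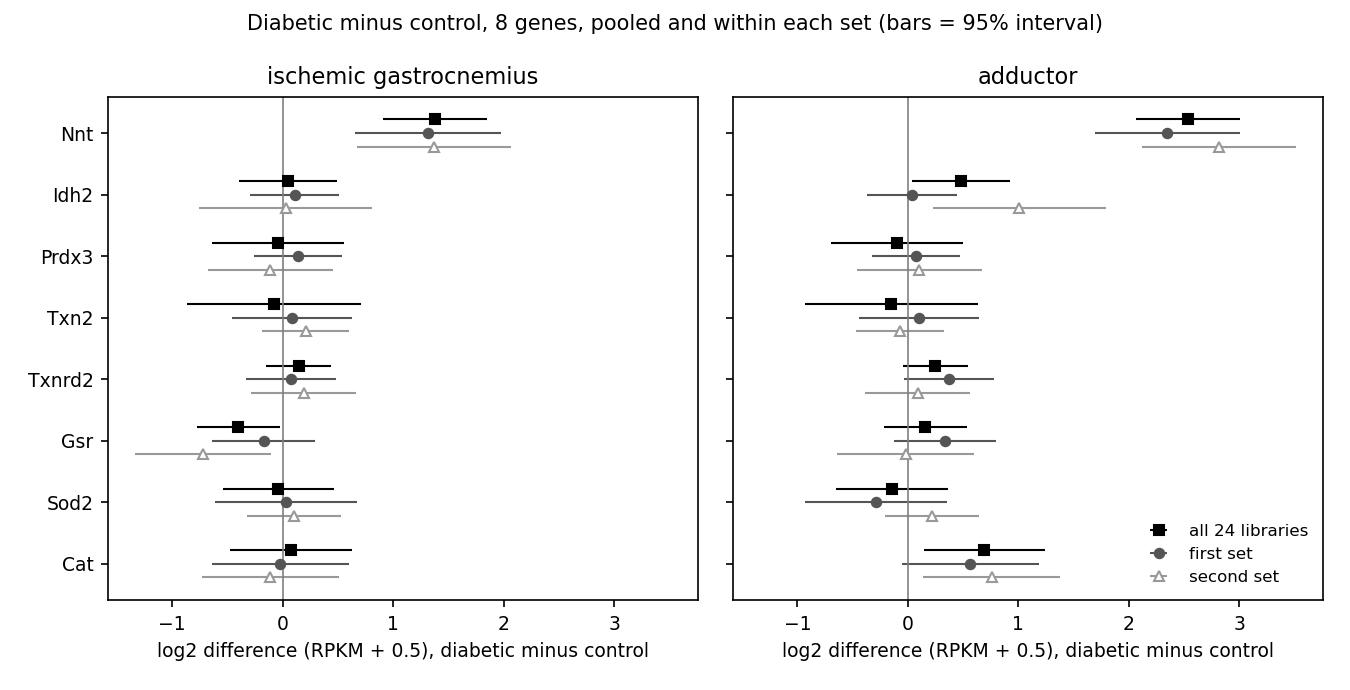
Diabetic minus control log2 difference of the 8 genes in ischemic gastrocnemius and adductor (linear axis, bars are 95% intervals), from all 24 libraries (squares), the first set alone (circles) and the second set alone (triangles). Nnt lies above 0 in all 6 estimates, and the pooled partner values lie between -0.40 and 0.69.

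Among the NADPH sources, Idh2 (NM_173011, chr7:87239734-87260236) had a lowest, median and highest value of 80.1, 86.1 and 104.8 RPKM in diabetic and 70.5, 86.4 and 106.8 RPKM in control gastrocnemius. All diabetic libraries lay within the control range, with a log2 difference of 0.05 ± 0.21 (95% interval -0.40 to 0.49). In adductor the values were 49.6, 66.3 and 84.5 RPKM in diabetic and 25.7, 58.4 and 67.3 RPKM in control mice, a difference of 0.48 ± 0.21 (0.04 to 0.92) that did not pass. It rested on the second set, where control adductor 4 and 5 had 30.4 and 25.7 RPKM: within that set it was 1.01 ± 0.35, and within the first set 0.04 ± 0.19.

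In the thioredoxin chain, Txnrd2 (NM_013711, chr16:18426510-18479166) was the scarcest member in both gastrocnemius groups, at 6.70 ± 1.39 RPKM in diabetic and 5.93 ± 0.47 RPKM in control mice. In adductor it averaged 7.80 ± 1.75 RPKM in diabetic and 6.38 ± 0.53 RPKM in control mice. The log2 differences were 0.14 ± 0.14 in gastrocnemius and 0.25 ± 0.14 in adductor.

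Txn2 (NM_019913, chr15:77745481-77759424) and Prdx3 (NM_007452, chr19:60939969-60950441) differed between the sets of libraries. Txn2 ran from 61.4 to 229 RPKM in diabetic and from 64.2 to 207.5 RPKM in control gastrocnemius, and from 53.4 to 132.3 RPKM in diabetic and 49.5 to 142.0 RPKM in control adductor. Its second-set mean was 1.95 to 2.56 times its first-set mean in the 4 groups. For Prdx3 that ratio was 1.32 in diabetic and 1.53 in control gastrocnemius, and 2.18 in diabetic and 2.13 in control adductor. The diabetic minus control differences of Prdx3 were -0.05 ± 0.29 (-0.64 to 0.55) in gastrocnemius and -0.10 ± 0.29 (-0.69 to 0.50) in adductor. Those of Txn2 were -0.08 ± 0.38 (-0.87 to 0.70) and -0.15 ± 0.38 (-0.94 to 0.64). These intervals are the widest among the 8 genes, and with terms for the set all 4 differences had the other sign, between 0.03 and 0.14.

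Gsr (NM_010344, chr8:34763710-34808634) had 7.27, 11.8 and 14.8 RPKM as lowest, median and highest value in diabetic gastrocnemius and 9.74, 16.2 and 18.8 RPKM in control gastrocnemius. Its log2 difference there was -0.40 ± 0.18 (-0.78 to -0.03), with -0.17 ± 0.22 in the first set and -0.72 ± 0.27 in the second. In adductor the 5.87 to 9.07 RPKM of diabetic mice overlapped the 5.53 to 8.74 RPKM of control mice, and the difference was 0.16 ± 0.18.

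**Figure D4:**
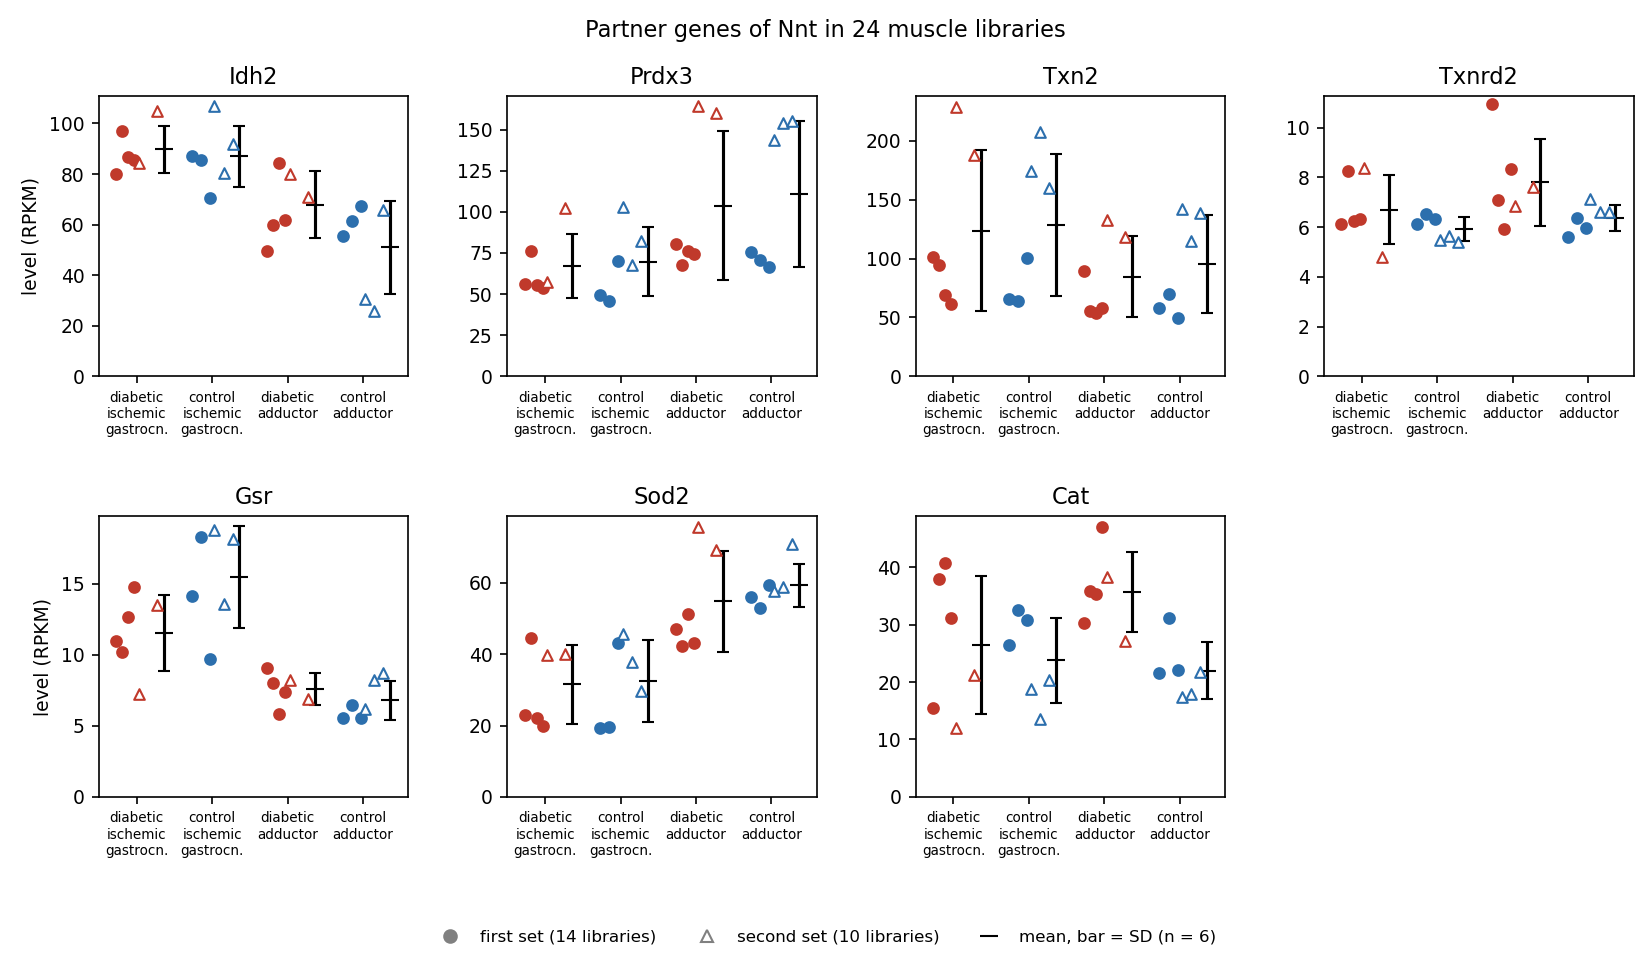
Levels in RPKM (linear axes from 0) of the 7 partner genes in each of the 24 libraries by group, with filled circles for the first set, open triangles for the second set, and a line with bar for the mean ± SD (n = 6). Prdx3 and Txn2 part by set, and Sod2 is lower in the gastrocnemius groups (31.5 and 32.5 RPKM on average) than in the adductor groups (54.9 and 59.3 RPKM).

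Sod2 (NM_013671, chr17:13200705-13210985) averaged 31.5 ± 11.1 RPKM in diabetic and 32.5 ± 11.6 RPKM in control gastrocnemius, and 54.9 ± 14.2 RPKM in diabetic and 59.3 ± 6.08 RPKM in control adductor. The log2 differences were -0.04 ± 0.24 (-0.54 to 0.46) and -0.14 ± 0.24 (-0.65 to 0.36). Of the 31-base words of Sod2, 3.88% also occur in transcripts of other genes. Cat (NM_009804, chr2:103294061-103325310) had 27.2, 35.6 and 47.1 RPKM as lowest, median and highest value in diabetic adductor and 17.4, 21.6 and 31.1 RPKM in control adductor. There 4 of 6 diabetic libraries lay above every control library, and the difference was 0.69 ± 0.27 (0.14 to 1.24), similar within the first set (0.57 ± 0.29) and the second (0.76 ± 0.27), but it did not pass after adjustment. In gastrocnemius Cat ranged from 12.0 to 40.7 RPKM in diabetic and 13.6 to 32.6 RPKM in control mice, a difference of 0.08 ± 0.27.

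After centring on group and set, Nnt ran most like Cat (r = 0.71 over 24 libraries, above 94.1% of all tested genes) and Idh2 (0.61, above 88.8%), and against Txn2 (-0.53). Prdx3 ran with Sod2 (0.66) and Txn2 with Txnrd2 (0.54), while Gsr ran against Sod2 (-0.47). These values describe how libraries of 1 group vary together. The gene most like each partner after centring on muscle and set was Ushbp1 for Idh2 (0.86), Nfs1 for Prdx3 (0.92), Mrps34 for Txn2 (0.94), Psmd11 for Txnrd2 (0.86), Arf1 for Gsr (0.93), Vegfb for Sod2 (0.93) and Rab15 for Cat (0.89).

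The wider pathway was counted between mouse groups in the same fit. From lists chosen for these functions, 0 of 14 tested NADPH sources, 0 of 12 other peroxiredoxins and thioredoxins, 0 of 17 glutathione genes, 0 of 10 other superoxide dismutases and superoxide sources, 0 of 12 NRF2 regulators and targets, and 0 of 10 PGC-1 and ERR regulators passed in either muscle by limma or by voom. Over the 70 different genes of these lists, 0 in gastrocnemius and 1 in adductor (Slc25a1) had an unadjusted p under 0.05. Their medians lay between -0.17 and 0.15 on the log2 scale. Slc25a1, the mitochondrial citrate carrier, had 2.77 ± 0.86 RPKM in diabetic and 7.36 ± 4.52 RPKM in control adductor (-1.10 ± 0.32, limma adjusted p = 0.97). Among 30 genes of the respiratory chain and citrate cycle 0 passed by either tool, and 0 had an unadjusted p under 0.05 in either muscle. Their median was 0.03 in gastrocnemius, with 18 of 30 above 0, and -0.23 in adductor, with 3 of 30 above 0.

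No marker of another fibre or cell type passed between mouse groups, but several lists lay mostly to 1 side. Slow fibre genes had a median of 0.20 in gastrocnemius and 0.68 in adductor, with 9 of 9 above 0 in each. Their summed level ranged from 1087 to 2268 RPKM in diabetic and 1005 to 1971 RPKM in control gastrocnemius, and from 471 to 1136 RPKM in diabetic and 229 to 752 RPKM in control adductor. Red blood cell genes had medians of -2.18 and -1.49, with 0 of 5 above 0. They summed to 14.4 to 173.7 RPKM in diabetic and 78.3 to 555 RPKM in control gastrocnemius, and to 39.8 to 208 RPKM in diabetic and 98.6 to 1327 RPKM in control adductor. Adipocyte genes had medians of 0.76 with 7 of 8 above 0 in gastrocnemius and -0.34 with 2 of 8 above 0 in adductor. They summed to 333 to 718 RPKM in diabetic and 215 to 542 RPKM in control gastrocnemius, and to 142 to 698 RPKM in diabetic and 189 to 595 RPKM in control adductor. In gastrocnemius 0 of 8 endothelial genes, 1 of 8 fibroblast genes (median -0.38), 3 of 9 macrophage genes and 9 of 10 muscle fibre genes lay above 0, against 5 of 8, 2 of 8, 7 of 9 and 3 of 10 in adductor. Of 3 tested neutrophil genes 1 lay above 0 in each muscle. In these lists the neutrophil gene Elane was at 0 in diabetic adductor and no other marker was at 0 in a group, and their part in the Nnt difference was not tested. In whole muscle, a change in the share of cells of a type and a change in RNA per cell cannot be told apart.

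The comparison of ischemic gastrocnemius with adductor within each mouse group was a different contrast from the one that chose Nnt, and it was fitted for all 8 genes. For Nnt it draws on the same libraries that chose the gene, so its muscle differences are given with no p-value. Sod2 was lower in gastrocnemius in both mouse groups, Nnt was lower in gastrocnemius of diabetic mice, and Gsr was higher in gastrocnemius in both mouse groups on the RPKM scale. On that scale most genes leaned upward: the median over all tested genes was 0.55 in diabetic and 0.66 in control mice, and 56.9% of genes were called in diabetic mice (48.1% higher, 8.83% lower) and 63.1% in control mice (54.4% higher, 8.7% lower). With median-of-ratios scaling, which sets libraries level at their middle genes, the medians were -0.04 and -0.02, with 27.3% higher and 26.5% lower in diabetic and 28.3% higher and 26.5% lower in control mice. A direction below is therefore given with its place relative to the median.

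Of the 7 partners, Gsr rose and Sod2 fell in diabetic mice, and Idh2 and Gsr rose and Sod2 fell in control mice. Nnt was left out of the calls. With median-of-ratios scaling 0 partners rose, and Prdx3, Txnrd2, Sod2 and Cat fell in both mouse groups, where 26.5% of all genes fell. The median difference of the 8 genes was -0.37 in diabetic and 0.24 in control mice, below the median of all genes in each. Same-numbered samples of the muscles deviated together from their group means (r of 0.254 to 0.736 over 12 pairs), but less so once set means were removed (-0.0901 to 0.627). In a fit that blocks on the sample number, Prdx3, Txn2, Gsr, Sod2 and Cat were called in diabetic mice, against 68.6% of all genes. In control mice Idh2, Prdx3, Txn2, Gsr and Sod2 were called, against 74% of all genes. With terms for the set, the set effect of a muscle was shared by both mouse groups, and the same partners were called as without them. The fit of the first set alone differed: there Idh2 passed in diabetic (limma adjusted p = 0.03) and not in control mice (0.096). The share of all genes was not counted for these fits.

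**Figure D5:**
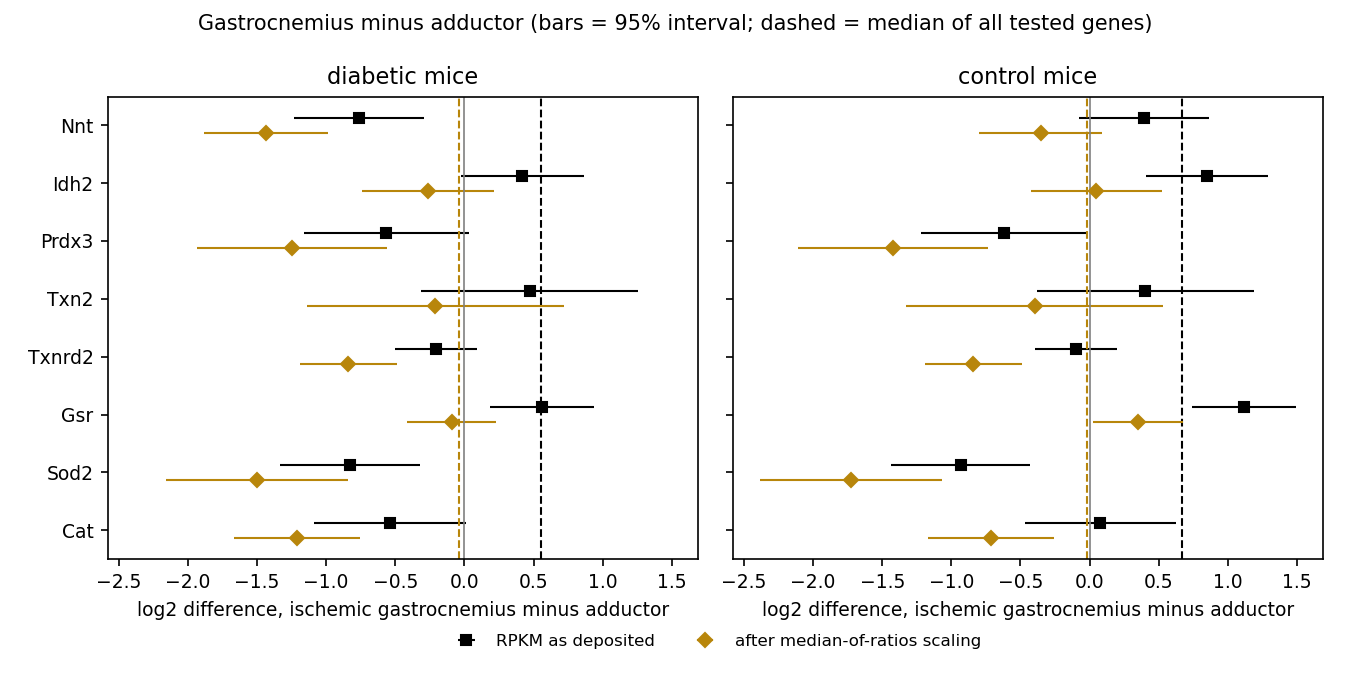
Ischemic gastrocnemius minus adductor log2 difference of the 8 genes in diabetic and control mice (linear axis, bars are 95% intervals), from RPKM as deposited (squares) and after median-of-ratios scaling (diamonds), with dashed lines at the median of all tested genes. Sod2 lies left of 0 and of the median under both scalings, while Idh2, Txn2 and Gsr of diabetic mice change sides of 0.

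Sod2 had a lowest, median and highest value of 19.7, 31.3 and 44.6 RPKM in diabetic gastrocnemius and 42.4, 49.3 and 75.8 RPKM in diabetic adductor. In control mice it had 19.2, 33.8 and 45.8 RPKM in gastrocnemius and 52.9, 58.3 and 70.8 RPKM in adductor. All 6 control gastrocnemius libraries lay below every control adductor library (3% of all genes do so), and 5 of 6 did in diabetic mice (2.33% of genes have all 6). By limma the log2 differences were -0.83 ± 0.24 in diabetic (adjusted p = 0.0057) and -0.93 ± 0.24 in control mice (adjusted p = 0.0020). Relative to the median of all genes they were -1.38 and -1.60. The difference passed in both mouse groups within each set, at -0.82 and -1.13 in the first set and -0.85 and -0.73 in the second.

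Prdx3, which removes the peroxide that Sod2 makes, averaged 67.0 ± 19.3 RPKM in gastrocnemius and 103.8 ± 45.5 RPKM in adductor of diabetic mice, and 69.7 ± 21.1 RPKM in gastrocnemius and 111.0 ± 44.2 RPKM in adductor of control mice. The log2 differences of -0.57 ± 0.29 and -0.62 ± 0.29 did not pass by limma (adjusted p = 0.098 and 0.065), while relative to the median of all genes they were -1.12 and -1.28. With the replicate block the adjusted p was 0.016 in diabetic and 0.0088 in control mice. The terms for the set were fitted separately in each muscle and shared by both mouse groups. With them the differences were -0.36 and -0.31 and did not pass (limma adjusted p = 0.051 and 0.12). In the first set alone they were -0.31 and -0.38 and did not pass (limma adjusted p = 0.12 and 0.11). In the second set alone they were -1.07 and -0.86 and passed (limma adjusted p = 0.011 and 0.008). The adjusted p by limma with median-of-ratios scaling was 0.0029 and 0.00091.

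The stretches in front of these 2 genes are shown because Sod2 and Prdx3 varied together across libraries (r = 0.66). Both were also lower in gastrocnemius with median-of-ratios scaling, as were Txnrd2 and Cat. The stretches are the 250 bases before the annotated start in RefSeq, printed 5′ to 3′ on the gene's strand, with motif matches in capitals. Their build is GRCm38.p6, while the expression table uses mm9. Sod2 lies at chr17:13007589-13007838 on the plus strand and Prdx3 at chr19:60874539-60874788 on the minus strand. Entries were matched for 6 of the 8 genes.
Sod2: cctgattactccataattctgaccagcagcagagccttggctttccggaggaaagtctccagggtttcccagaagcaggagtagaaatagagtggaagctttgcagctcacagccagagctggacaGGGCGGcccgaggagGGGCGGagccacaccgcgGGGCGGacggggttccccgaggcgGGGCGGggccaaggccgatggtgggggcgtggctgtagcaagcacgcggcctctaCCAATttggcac
Prdx3: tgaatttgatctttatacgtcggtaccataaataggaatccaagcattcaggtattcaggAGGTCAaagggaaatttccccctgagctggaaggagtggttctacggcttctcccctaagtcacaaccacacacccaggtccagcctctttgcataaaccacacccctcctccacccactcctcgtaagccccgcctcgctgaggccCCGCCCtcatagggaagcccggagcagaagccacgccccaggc
Motifs searched on both strands were the GC box GGGCGG, the CCAAT box, the nuclear receptor half-site AGGTCA, the antioxidant response element core TGACNNNGC and the NRF1 half-site TGCGCA, with no match overlapping another in these windows. Sod2 holds 4 GC boxes and 1 CCAAT, and Prdx3 holds 1 GC box, read as CCGCCC on the printed strand, and 1 AGGTCA. The windows of Idh2, Txn2, Txnrd2 and Cat also hold GC boxes. Of 32851 windows of this length in the RefSeq table, 32.7% hold GGGCGG, 33.8% CCAAT, 14.0% AGGTCA, 10.2% TGACNNNGC and 6.43% TGCGCA. A match is a run of letters, not a site.

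Nnt was lower in gastrocnemius than in adductor of diabetic mice, at 20.9 ± 6.92 RPKM in gastrocnemius and 35.7 ± 9.87 RPKM in adductor (log2 difference -0.76 ± 0.23). The sets gave -0.59 ± 0.28 in the first and -1.11 ± 0.34 in the second, and median-of-ratios scaling gave -1.43. In control mice Nnt averaged 7.50 ± 1.45 RPKM in gastrocnemius and 5.57 ± 1.01 RPKM in adductor, a difference of 0.39 ± 0.23. Relative to the median of all genes that was -0.27, and under median-of-ratios scaling -0.35, so its direction depends on the scaling.

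Gsr averaged 11.6 ± 2.68 RPKM in gastrocnemius and 7.58 ± 1.13 RPKM in adductor of diabetic mice, and 15.5 ± 3.6 RPKM in gastrocnemius and 6.79 ± 1.38 RPKM in adductor of control mice. All 6 control gastrocnemius libraries lay above every control adductor library, as they do for 33.3% of all genes. In diabetic mice 5 of 6 did, and 29% of all genes have all 6. The log2 differences were 0.56 ± 0.18 in diabetic (limma adjusted p = 0.011) and 1.12 ± 0.18 in control mice (1.4e-05). Relative to the median of all genes they were 0.00 and 0.45, and with median-of-ratios scaling neither passed (-0.09, limma adjusted p = 0.65, and 0.35, adjusted p = 0.062). Within the second set alone the diabetic difference was 0.38 ± 0.30 and did not pass.

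Idh2 averaged 89.7 ± 9.29 RPKM in gastrocnemius and 67.8 ± 13.2 RPKM in adductor of diabetic mice, and 87.1 ± 12.1 RPKM in gastrocnemius and 51.0 ± 18.3 RPKM in adductor of control mice. All 6 control gastrocnemius libraries lay above every control adductor library (33.3% of all genes). It rose on the RPKM scale in control mice (0.85 ± 0.21, limma adjusted p = 0.0015) and did not pass in diabetic mice (0.42 ± 0.21, adjusted p = 0.10). Within the sets the control difference was 0.40 ± 0.20 in the first, where it did not pass (limma adjusted p = 0.096), and 1.30 ± 0.31 in the second (0.0052), which holds control adductor 4 and 5. With median-of-ratios scaling the values were 0.05 in control mice and, with the other sign, -0.26 in diabetic mice.

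Txnrd2, Txn2 and Cat did not pass in either mouse group. Txnrd2 had -0.20 ± 0.14 in diabetic and -0.10 ± 0.14 in control mice (limma adjusted p = 0.23 and 0.57), which is -0.76 in each relative to the median of all genes, and with median-of-ratios scaling it fell in both (-0.84 in each, adjusted p = 0.00023 and 0.00021). Cat had -0.54 ± 0.27 in diabetic and 0.08 ± 0.27 in control mice (limma adjusted p = 0.087 and 0.81), and with that scaling it fell in both (-1.21, adjusted p = 7.4e-05, and -0.71, adjusted p = 0.0087). With the replicate block the limma adjusted p of Cat in diabetic mice was 0.026. With terms for the set it was 0.15, in the first set alone 0.31 and in the second set alone 0.023. Txn2 had 0.47 ± 0.38 and 0.40 ± 0.38 (limma adjusted p = 0.30 and 0.37). Its limma adjusted p was 0.019 and 0.036 with the replicate block, and 0.055 and 0.2 with terms for the set. In the second set alone it was 0.013 and 0.032. With median-of-ratios scaling Txn2 had the other sign, -0.21 and -0.40.

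Genes around the 8 did not share 1 direction between muscles. Over all tested genes 48.1% rose and 8.83% fell in diabetic and 54.4% rose and 8.7% fell in control mice. The shares under median-of-ratios scaling were 27.3% and 26.5% in diabetic and 28.3% and 26.5% in control mice. Counts of the lists stand beside these shares and are a description. Of 14 tested genes listed as NADPH sources, 8 rose and 3 fell in gastrocnemius of diabetic mice (median 0.86). In control mice 9 rose and 3 fell (median 0.85). That list also holds Me2, the mitochondrial NAD-dependent malic enzyme. Me2 averaged 7.76 ± 2.46 RPKM in gastrocnemius and 1.5 ± 0.46 RPKM in adductor of diabetic mice (2.03 ± 0.24, limma adjusted p = 3.3e-07). Pgd, of the pentose phosphate pathway, rose by 1.82 ± 0.24 in diabetic and 1.95 ± 0.24 in control mice. Me1, the cytosolic malic enzyme, fell to 14.8 ± 13.4 RPKM in gastrocnemius, against 63.6 ± 9.98 RPKM in adductor of diabetic mice (-2.37 ± 0.37, limma adjusted p = 9.1e-06). Under median-of-ratios scaling 7 rose and 4 fell in diabetic and 5 rose and 5 fell in control mice, with Me2, Pgd and Me1 passing in the same direction.

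Among 12 other peroxiredoxins and thioredoxins, 6 rose and 0 fell in diabetic and 6 rose and 1 fell in control mice (medians 0.59 and 0.55). That is near the 48.1% and 54.4% of all genes that rose. Prdx4, the peroxiredoxin of the endoplasmic reticulum, averaged 26.9 ± 9.39 RPKM in gastrocnemius and 3.43 ± 1.20 RPKM in adductor of diabetic mice (2.76 ± 0.32, limma adjusted p = 2.0e-07). With median-of-ratios scaling 1 rose and 2 fell in diabetic and 2 rose and 2 fell in control mice. Among 17 glutathione genes, 5 rose and 2 fell in diabetic and 6 rose and 2 fell in control mice (medians 0.21 and 0.26), with Gpx8, a glutathione peroxidase of the endoplasmic reticulum, at 3.01 ± 0.34 and 2.86 ± 0.34. With that scaling 4 rose and 4 fell in diabetic and 3 rose and 6 fell in control mice.

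The other superoxide dismutases and superoxide sources rose in 8 of 10 cases in each mouse group (medians 2.26 and 2.22). They were led by Cyba (3.73 ± 0.36 in diabetic and 3.58 ± 0.36 in control mice) and Cybb (3.30 ± 0.34 and 3.22 ± 0.34), subunits of the phagocyte NADPH oxidase. With median-of-ratios scaling 7 rose in diabetic and 8 in control mice, with 0 lower in each. Among 12 NRF2 regulators and targets, 3 rose and 3 fell in diabetic and 4 rose and 2 fell in control mice (medians 0.00 and 0.21), with Hmox1, haem oxygenase 1, at 2.25 ± 0.50 and 2.92 ± 0.50 and Nqo1, a quinone reductase, at -2.18 ± 0.31 and -2.16 ± 0.31. With that scaling 2 rose and 6 fell in each mouse group.

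Respiratory chain and citrate cycle genes fell in 3 of 30 cases in diabetic and 8 of 30 in control mice, with 0 higher (medians -0.07 and -0.42), and in 17 and 26 of 30 with median-of-ratios scaling. Of all genes 8.83% fell in diabetic and 8.7% in control mice, and 26.5% in each with that scaling. Idh3b, a subunit of the NAD-dependent isocitrate dehydrogenase, averaged 67.9 ± 33.2 RPKM in gastrocnemius and 122.8 ± 24.9 RPKM in adductor of diabetic mice (-0.99 ± 0.30, limma adjusted p = 0.0077). Of 10 PGC-1 and ERR regulators, which drive mitochondrial gene expression, 1 rose and 2 fell in diabetic and 1 rose and 4 fell in control mice. Ppargc1a, which encodes PGC-1α, had -0.94 ± 0.26 in control mice (limma adjusted p = 0.0036). With median-of-ratios scaling 0 rose and 6 fell in each mouse group.

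Markers of cell types were counted in the same muscle comparison. Of all tested genes 48.1% rose and 8.83% fell in diabetic and 54.4% rose and 8.7% fell in control mice. Under median-of-ratios scaling 27.3% rose and 26.5% fell in diabetic and 28.3% rose and 26.5% fell in control mice. Macrophage genes rose in 8 of 9 cases in each mouse group, and their summed level ranged from 274 to 1176 RPKM in gastrocnemius and 45.3 to 96.6 RPKM in adductor of diabetic mice, and from 351 to 1412 RPKM in gastrocnemius and 26.3 to 229.6 RPKM in adductor of control mice. Fibroblast genes rose in 8 of 8 cases in each, with sums of 1602 to 5740 RPKM in gastrocnemius and 272 to 536 RPKM in adductor of diabetic mice, and 2015 to 6923 RPKM in gastrocnemius and 223 to 1106 RPKM in adductor of control mice. Endothelial genes rose in 6 of 8 cases in diabetic and 5 of 8 in control mice. Muscle fibre genes fell in 3 of 10 cases in diabetic and 4 of 10 in control mice, with 0 higher. Slow fibre genes were split, with 4 higher and 3 lower in diabetic and 5 higher and 3 lower in control mice. With median-of-ratios scaling, macrophage genes were 7 higher and 1 lower in diabetic and 8 higher and 1 lower in control mice, and fibroblast genes 4 and 5 higher with 0 lower. Endothelial genes were then 0 higher and 1 lower in diabetic and 1 higher and 0 lower in control mice, and muscle fibre genes 5 and 8 lower with 0 higher. Slow fibre genes were 2 higher and 4 lower in diabetic and 5 higher and 4 lower in control mice. No marker of these 5 lists was at 0 in a group, and their part in the differences of the 8 genes was not tested.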

How the data were processed

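The authors deposited 1 table of RPKM values for 33022 transcripts in 24 libraries; TopHat, HOMER and mm9 are named, per the submitters' processing notes, and versions and the use of strand are not given in the sources used here. The 8 genes and all gene lists were chosen with earlier results of these data known. Where a symbol had several transcripts, the one with the largest average RPKM stood for it, and genes with at least 1 RPKM in at least 6 libraries (12382) were tested. Multiplied back to reads, 99.97% of values above 0 were whole within 0.01. limma 3.58.1 (R 4.3.3, limma-trend) was fitted to log2(RPKM + 0.5) over all 24 libraries with 5 contrasts, so fold changes of low genes are understated, and p-values were adjusted within a contrast by Benjamini-Hochberg, with 0.05 as the threshold. The fit was checked on simulated data. Counting floors cover counting error only, and the 95% intervals of differences come from limma and the spread between libraries.

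The division of the libraries by Gapdh (100 RPKM) was chosen after seeing the data. Named list genes are those called with the smallest p-values, at most 4 per list and comparison, or where none was called the one with the smallest p. Genes most like another were ranked by Pearson r over 24 libraries. No pair of libraries of a group was a repeat of the other: over 60 pairs the lowest chi-square per degree of freedom was 8.97. Deviations of same-numbered muscles from their group means correlated at 0.254 to 0.736 over 12 pairs, which meets the rule used (every pair over 0.1). All 12 pairs lie within 1 set, and from group and set means r was -0.0901 to 0.627, with 5 of 12 under 0.1. The rule therefore cannot tell pairing of the muscles by number from the shared set. Between mouse groups r was 0.021 to 0.822 for pairs of 1 set. It was -0.619 and -0.659 for the number 4 pairs, which lie in different sets, so the rule was not met there. Alternatives were the pseudocount, no filter, median-of-ratios scaling, voom on the recovered reads and terms for the set. Others were the replicate block, the longest transcript and leaving out each library. The terms for the set were 1 per muscle, shared by both mouse groups. With them gastrocnemius minus adductor is estimated at the level of the first set, from all 24 libraries. Exon coverage and promoter sequences of Nnt and Gsr were not analysed here. A result that bears on the level of Txnrd2 is not reported here.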

Additional observations from a re-analysis of the deposited data

Results flagged for a closer look

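Of 32 groups of 6 libraries (8 genes in 4 groups), 3 held a library whose gap to its nearest neighbour took up more of the group's range than Dixon's critical value at 95% for 6 samples, and chance flags about 1 in 20 groups. Nnt in control gastrocnemius replicate 5 stood at 4.72 RPKM, with the other 5 libraries between 7.22 and 8.52 RPKM (gap over range 0.658). Sod2 in control adductor replicate 6 stood at 70.8 RPKM, with the others between 52.9 and 59.4 RPKM (0.635). Cat in control adductor replicate 2 stood at 31.1 RPKM, with the others between 17.4 and 22.1 RPKM (0.654).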

How the results depend on the processing

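Of 320 single-gene values under the alternatives other than leaving out a library, 291 were kept. These include all under a pseudocount of 0.1, voom and the longest transcript. A value was kept if its direction and side of the threshold stayed. For Nnt in the diabetes contrasts it was kept if it moved by less than the residual SD of Nnt. Over all tested genes, with Nnt among them, 1 was called in diabetic minus control gastrocnemius. That count became 0 with terms for the set, 0 with the replicate block, 2 with a pseudocount of 1 and 4 with no filter. Nnt was chosen for its diabetes differences, so nothing about Nnt is read from these counts. In the diabetes contrasts the replicate block paired diabetic with control samples of 1 number, for which nothing says that they belong together. So blocked, 3 genes were called in adductor. In the difference between muscles, blocked on the number across muscles, 0 were called. Leaving out 1 library gave 0 to 3 genes called in gastrocnemius and 1 to 4 in adductor. The counts for gastrocnemius minus adductor were made over all 8 genes, with Nnt among them. In diabetic mice 3 of 8 became 5 with median-of-ratios scaling and 6 with the replicate block. In control mice 3 became 4 with median-of-ratios scaling and 6 with the replicate block. With terms for the set the count was 3 of 8 in each mouse group. All of these counts in diabetic mice include Nnt, as does the control count with the replicate block. Nnt is not read as a call in them. The partners counted in diabetic mice were Gsr and Sod2. With median-of-ratios scaling they were Prdx3, Txnrd2, Sod2 and Cat, and with the replicate block Prdx3, Txn2, Gsr, Sod2 and Cat.

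Median-of-ratios scaling turned the sign of Prdx3 (0.0191) and Sod2 (0.0243) in diabetic minus control gastrocnemius, of Txnrd2 (0.0007) in the difference between muscles, of Idh2 (-0.263), Txn2 (-0.210) and Gsr (-0.0929) in gastrocnemius minus adductor of diabetic mice, and of Nnt (-0.354), Txn2 (-0.398) and Cat (-0.710) in that of control mice. Terms for the set turned Prdx3 (0.0857) and Txn2 (0.0309) in adductor, Prdx3 (0.0366), Txn2 (0.136), Sod2 (0.0571) and Cat (-0.0597) in gastrocnemius, and Prdx3 (-0.0491) in the difference between muscles. The cause was not tested. Of these, Gsr in diabetic mice passed on the RPKM scale and did not with median-of-ratios scaling, and Cat in control mice passed with that scaling and did not on the RPKM scale.

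Leaving out each of the 24 libraries in turn kept Nnt between 2.44 and 2.72 in diabetic minus control adductor, 1.25 and 1.51 in gastrocnemius, and -1.34 and -1.03 in the difference between muscles. Values near 0 crossed it. In diabetic minus control they ran from -0.251 to 0.0193 for Prdx3 in adductor and, in gastrocnemius, from -0.0093 to 0.110 for Idh2, -0.176 to 0.077 for Prdx3, -0.294 to 0.0851 for Txn2, -0.172 to 0.0778 for Sod2 and -0.0744 to 0.27 for Cat. In the difference between muscles they ran from -0.0777 to 0.206 for Prdx3, -0.145 to 0.234 for Txn2 and -0.028 to 0.221 for Sod2. Cat in gastrocnemius minus adductor of control mice ran from -0.0237 to 0.223. The limma calls of Gsr and Sod2 in diabetic mice and of Idh2, Gsr and Sod2 in control mice between muscles passed with each of the 24 left out.

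Depth limits Txnrd2 most, at 65 to 268 reads a library.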
